A study of Mus musculus with 17 samples.

Results

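Short promoter regions of histone H3 acetylated at lysine 9 (H3K9ac) were examined in mouse liver. They were the listed H3K9ac regions under 1000 bases long whose centre lay within 1000 bases of the nearest transcription start site. There were 4423 of them among 57499 regions, or 7.69%, and among the 13830 regions within that distance of a start site they made up 31.98%. The other 9407 promoter regions, of 1000 bases or more, are called longer promoter regions here. Livers came from C57BL/6 mice, an inbred laboratory strain, fed a high-fat diet (HFD, with 60% of calories from fat) or a control diet (CD, with 18%) for 10 weeks. H3K9ac was measured by chromatin immunoprecipitation and sequencing in 3 HFD livers (A, B and D) and 3 CD livers (A, C and D), and polyadenylated RNA was sequenced from 4 HFD and 4 CD livers (A to D). The labels give no genotype, age or sex, and whether equal letters mark the same animal in both assays is not stated. Input and open-chromatin libraries of CD livers were not analysed here.

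H3K9ac is placed on histone tails by acetyltransferases and removed by deacetylases, and it marks the nucleosomes around start sites of genes in use. Promoters rich in CG pairs (CpG islands) usually carry broad domains of the mark at broadly used genes. Promoters poor in CG pairs, many with a TATA box, are typical of tissue-restricted genes, and in liver these include genes for secreted plasma proteins and for drug, bile acid and steroid metabolism.

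Of the sequences at these regions, 6 show the range of what the results turn on. The 4 promoters are the 250 bases before a start site, on the strand of the gene, from RefSeq (GRCm38.p6, the assembly behind mm10), with CG pairs in capitals. Hamp2 had the largest rise with HFD and Serpina1e the largest fall among regions with a matched RefSeq promoter. Rab5b had the highest H3K9ac per kb of all short regions, and Crlf2 the most CG pairs among the regions that changed. They lie at chr7:30924182-30924431, chr12:103956898-103957147, chr10:128696269-128696518 and chr5:109558994-109559243, all on the minus strand. The letters held 2 CG pairs for Hamp2, 2 for Serpina1e, 14 for Rab5b and 24 for Crlf2.
Hamp2: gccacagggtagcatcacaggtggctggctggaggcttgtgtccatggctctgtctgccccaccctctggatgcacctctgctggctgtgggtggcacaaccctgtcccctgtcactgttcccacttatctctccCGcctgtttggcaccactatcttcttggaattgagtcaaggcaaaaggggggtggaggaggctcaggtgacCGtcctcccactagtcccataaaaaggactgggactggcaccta
Serpina1e: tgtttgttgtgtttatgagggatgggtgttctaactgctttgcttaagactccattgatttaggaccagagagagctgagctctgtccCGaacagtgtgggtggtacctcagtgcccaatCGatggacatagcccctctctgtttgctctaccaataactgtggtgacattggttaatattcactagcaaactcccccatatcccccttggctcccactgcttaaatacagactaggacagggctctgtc
Rab5b: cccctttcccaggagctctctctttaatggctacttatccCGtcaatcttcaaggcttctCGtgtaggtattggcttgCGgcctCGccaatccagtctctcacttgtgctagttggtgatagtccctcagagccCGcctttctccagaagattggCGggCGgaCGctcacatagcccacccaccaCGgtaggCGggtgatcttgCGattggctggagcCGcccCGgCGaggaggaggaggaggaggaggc
Crlf2: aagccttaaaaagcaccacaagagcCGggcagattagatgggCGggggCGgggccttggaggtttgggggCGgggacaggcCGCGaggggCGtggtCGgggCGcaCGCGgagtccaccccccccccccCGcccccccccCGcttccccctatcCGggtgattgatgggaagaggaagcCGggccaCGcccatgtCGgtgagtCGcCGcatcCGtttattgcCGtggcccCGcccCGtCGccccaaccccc

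The largest rise of all lay beside the microRNA gene Mir802, for which the mature microRNAs are shown, with the seed (bases 2 to 8) in capitals. They lie on the plus strand at chr16:93369737-93369758 (5p) and chr16:93369775-93369796 (3p), and are also from RefSeq (GRCm38.p6).
mmu-miR-802-5p: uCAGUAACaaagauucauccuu
mmu-miR-802-3p: aCGGAGAGucuuugucacucag

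Total counts in H3K9ac regions were 9255635 to 12149497 per library, and RNA totals were 31802893 to 37596560. Levels are given as CPM, counts scaled to library size with a TMM factor per library. The labelled tissue was checked against its markers: all 12 hepatocyte genes of a marker list were measured, at 19 to 37710 FPKM (the authors' RNA level per kb of transcript, scaled to library size, as the geometric mean of the 8 libraries). In tissue, fewer cells of a type and less RNA or mark per cell cannot be told apart. The RNA column headings carried numbers of unstated meaning that followed the diet, so anything they mark cannot be told apart from it.

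The short promoter regions were 213 to 999 bases long, with a median of 651, and covered 2777521 bases, 5.41% of all bases in regions. They named 4093 genes. Of these, 3688 had short promoter regions only and 405 had a longer one as well. At least 2 short regions were listed for 315 of the genes, and 2 regions carried no gene name. Their median H3K9ac level was 6.19 CPM per kb (interquartile range 4.33 to 16.6), against 34.4 in longer promoter regions (18.1 to 52.8) and 4.57 in regions away from start sites (3.81 to 5.92). Per kb, then, the median short promoter region stood nearer to the regions away from start sites than to the longer promoter regions. The mean count per library had a median of 41.2 in short and 635 in longer promoter regions, so single short regions were measured less precisely. All short regions had reads in every library, and 1090 of them had a mean count under 20.

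Level, position and sequence varied with length among the short regions. Region boundaries were drawn from the H3K9ac signal, so length and level are not separate measurements, and this is a description. The 1044 regions of up to 399 bases had a median of 4.63 CPM per kb, the 928 of 400 to 599 bases 4.82, the 1083 of 600 to 799 bases 8.16 and the 1368 of 800 to 999 bases 19. The share lying over the start site itself was 29.9%, 58.5%, 82.7% and 93.1% in the same order. Over all short regions it was 68.4% (3024 regions), against 98.5% of longer promoter regions, where length alone makes it more likely. The shortest regions thus mostly lay beside the start site, at levels close to those of regions away from start sites. Regions over the start site had a median of 9.13 CPM per kb, the 550 upstream of it 4.69 and the 849 downstream of it 4.55. The centre lay downstream in 3322 short regions and upstream in 1097.

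CG content followed the same order. RefSeq promoters (250 bases before to 50 after the start) were matched to 2931 of the 4421 short regions with a gene name. They held a median of 12 CG pairs (interquartile range 6 to 20), against 24 (16.8 to 31) at longer promoter regions and 7 over all 32851 promoters of the table. By length the medians were 7, 9, 13 and 16 CG pairs, from the shortest class to the longest. The motif GGGCGG, on either strand, was present in 48.0% of promoters at short regions, 72.9% at longer regions and 35.7% of all promoters. The TATA motif TATAAA, on either strand, was present in 9.52%, 5.51% and 13.6% in the same order. A match is a description of letters, not a site in use. Promoters at short regions therefore held fewer CG pairs and GGGCGG motifs than those at longer ones, and more TATAAA motifs, but more CG pairs than promoters in general.

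**Figure D1:**
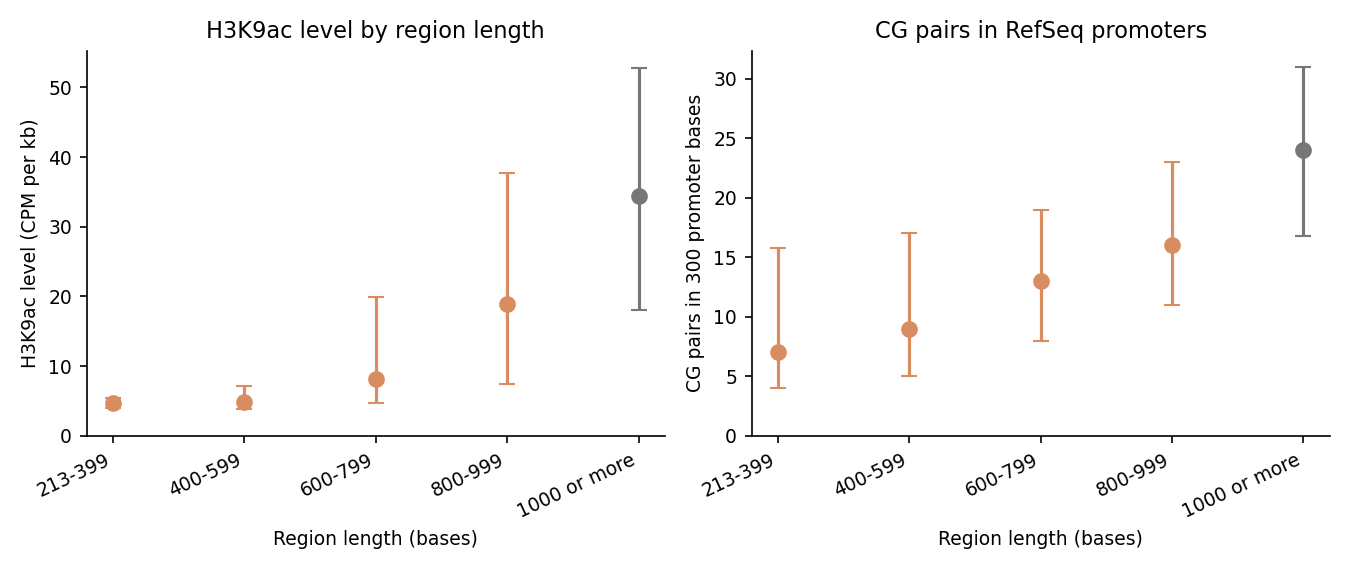
H3K9ac level in CPM per kb (left) and CG pairs in the 300-base RefSeq promoter (right), by region length in bases. Points are medians and bars interquartile ranges; the 4 orange classes are short promoter regions and the grey class the longer ones, with medians of 4.63 to 19 against 34.4 CPM per kb and 7 to 16 against 24 CG pairs.

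The highest level per kb was at Rab5b, a GTPase of early endosomes. It had 97.1, 98.1 and 102.7 CPM in HFD A, B and D, against 92.8, 101.8 and 105.0 CPM in CD A, C and D, in 955 bases (chr10:128695524-128696478). Its diets overlapped, with a log2 change of -0.01 (SE 0.08). After its 104.3 CPM per kb came Lman1, a cargo receptor of the secretory pathway (98.6), Smim10l1 (97.7), the zinc finger gene Zfp871 (97.2), Hsd17b4, an enzyme of peroxisomal fatty acid oxidation (95.5), and Wbp11, a splicing factor (93.7). These 6 regions were 716 to 989 bases long, lay over the start site and did not pass the test of diet. At the length limit, the 3 regions just inside, each of 999 bases, were those of Chmp4c (14.9 CPM per kb), Zfp35 (6.58) and Rab26 (5.32). The 3 just outside, each of 1000 bases, were those of Lhx2 (14.6), Ppp6c (85.3) and 9130011E15Rik (80.8).

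Genes with a short region only were less often found in the RNA table, and at lower levels, yet they included several of the most abundant liver transcripts. Of 3688 such genes, 1948 (52.8%) were in the RNA table, against 88.4% of 8830 genes with longer promoter regions only. Their median level was 2.91 FPKM, against 6.14 FPKM, and 88 of them were above 100 FPKM. Protein-coding genes made up 89.3% of them, long non-coding RNAs 5.61% and microRNAs 3.04%, against 95.4%, 2.87% and 0.997% for genes with longer regions only. By name, 9 Ugt genes (glucuronosyltransferases) had only short promoter regions and 0 had a longer one. The counts were 8 and 6 for Serpina genes and 17 and 21 for Cyp genes, and 2 more Cyp genes had both kinds.

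The most abundant were Fabp1, the fatty acid binding protein of hepatocytes (7795 FPKM), Serpina3k (6025), Serpina1e (4410), Ttr, the thyroxine carrier transthyretin (4325), Serpina1b (2843) and the fibrinogen chain Fgg (2555). Their short regions carried 6.97, 13.1, 7.77, 7.99, 4.71 and 4.62 CPM per kb in that order, all far below Rab5b, whose RNA was at 36.5 FPKM. Across the 1792 genes with exactly 1 short promoter region, no longer one and a measured RNA, H3K9ac per kb and RNA level had a Spearman correlation of 0.387. The points share the libraries, and genes are not independent replicates. In 4 groups of 448 genes, ordered from the least H3K9ac per kb to the most, the median RNA levels were 1.14, 1.31, 3.09 and 7.59 FPKM. Genes of the Serpina, Ugt, Cyp and Hamp families have close copies, so their counts are uncertain if reads were split between them.

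Between the diets, H3K9ac changed at few short promoter regions. In edgeR's quasi-likelihood fit, with p-values adjusted over all regions by Benjamini-Hochberg, 46 of 4423 passed the threshold of 0.05 (1.04%), against 2.39% of all regions and 3.52% of longer promoter regions. Of the 46, 20 were higher in HFD (0.835% of all regions were) and 26 lower (1.55% of all regions). The diets did not overlap in 563 short regions (12.7%), against 15.4% of all regions, and in 43 of the 46 called. Regions of any kind that were both called and not overlapping made up 2.18%. By length class, from the shortest, 2, 8, 13 and 23 passed, while the median SE of the log2 change was 0.39, 0.28, 0.20 and 0.14. As shares of the classes these were 0.192%, 0.862%, 1.2% and 1.68%. Within short regions, the share called was thus lowest where values were least precise. Over all short regions the median SE was 0.23, below the 0.27 of all regions. It was 0.30 in regions away from start sites, of which 2.28% passed. The part of counting depth was not tested. Short promoter regions held 4.67%, 4.74% and 4.77% of H3K9ac reads in HFD A, B and D, against 4.58%, 4.67% and 4.61% in CD A, C and D. The HFD libraries lay just above the CD libraries, with HFD A and CD C equal at this rounding. The median log2 change was 0.04 in short regions and -0.00 in all regions.

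The 46 regions lay over the start site in 38 cases, and at 42 of them the gene had no longer promoter region. Their promoters, matched for 29, held a median of 7 CG pairs. The 11 matched at regions that rose held 6, and the 18 at regions that fell 9.5. Only 9 of the 46 stayed past the threshold with any 1 library left out: those of Mir802, Hamp2, Cyp17a1, Abcb1a, Serpina3m, Grin3b and Acot4, which rose, and of Serpina1e and Unc13b, which fell. Leaving out HFD B left 15 regions, CD C 22, HFD A 30 and CD A 30, and DESeq2 called 23. Over all regions DESeq2 called 813, against 1372 by edgeR. Calls over all regions with a library left out were not counted.

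**Figure D2:**
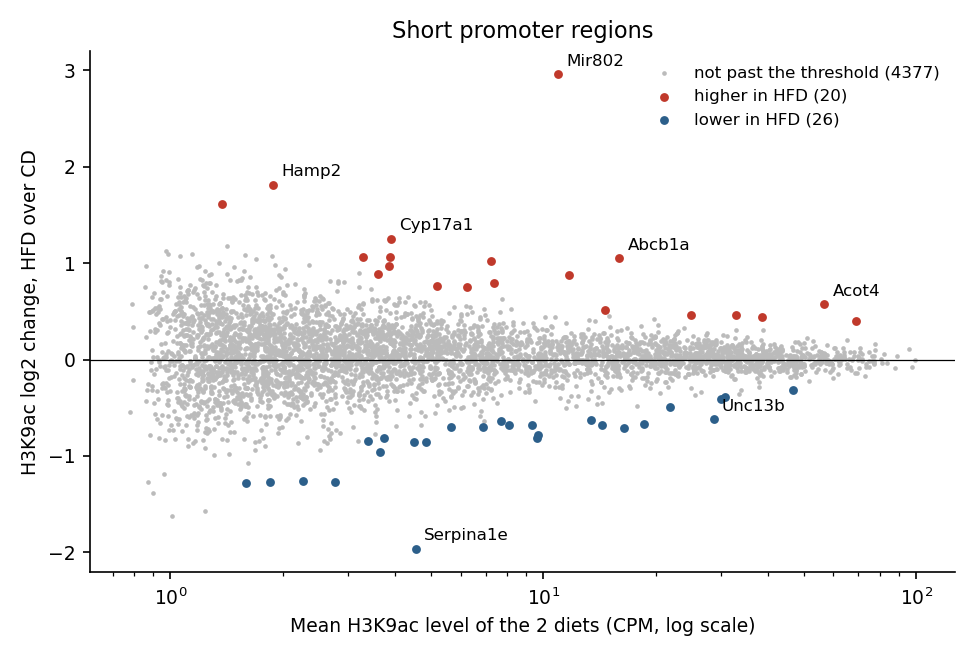
H3K9ac log2 change of HFD over CD against the mean H3K9ac level of both diets in CPM (log scale), with 1 point for each of the 4423 short promoter regions. Red points (20) passed the threshold and were higher in HFD, blue points (26) lower, and the largest changes were those of Mir802 (2.96) and Serpina1e (-1.96).

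**Figure D3:**
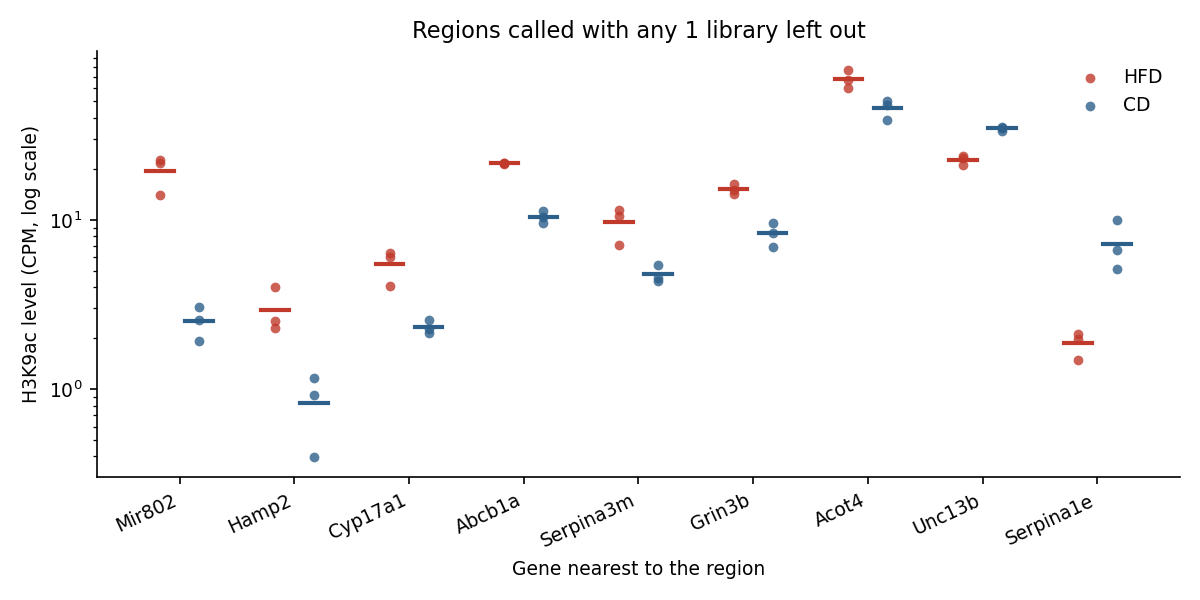
H3K9ac level in CPM (log scale) of the 9 short promoter regions past the threshold with any 1 library left out, with HFD libraries in red to the left of CD libraries in blue (n = 3 each, bars are means). In each of the 9 the diets do not overlap; 7 are higher and 2 lower in HFD.

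Mir802 encodes a liver microRNA that in mice is known to be raised in obesity. Its short region, 929 bases at chr16:93368282-93369210, ended 509 bases before the 97-base hairpin. It had 22.5, 21.6 and 14.1 CPM in HFD A, B and D, against 3.04, 1.92 and 2.57 CPM in CD A, C and D. Every HFD library was far above every CD library. The log2 change was 2.96 (SE 0.20, adjusted p = 1.7e-17, edgeR). A longer region over the hairpin, of 1170 bases, averaged 13.2 ± 3.64 CPM in HFD and 2.28 ± 0.136 CPM in CD (SD, n = 3 each) and also rose (log2 change 2.53). Mature microRNAs were not measured, since the RNA libraries were polyadenylated.

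Of the called regions, that of Serpina1e fell and that of Hamp2 rose. Serpina1e belongs to the alpha-1-antitrypsin genes, which encode protease inhibitors of plasma. Its region of 586 bases (chr12:103956395-103956980) had 2.13, 1.48 and 1.98 CPM in HFD A, B and D, against 9.91, 6.67 and 5.15 CPM in CD A, C and D (log2 change -1.96, SE 0.25, adjusted p = 5.11e-08 by edgeR). Its RNA had 2503, 2302, 4199 and 3635 CPM in HFD A to D, against 14770, 11490, 10680 and 11340 CPM in CD A to D (log2 change -1.93, SE 0.21, adjusted p = 0.000508). Both were lower in every HFD library than in any CD library. Hamp2, a gene of the hepcidin family, had 4.00, 2.52 and 2.31 CPM of H3K9ac in HFD A, B and D, against 1.16, 0.917 and 0.396 CPM in CD A, C and D, in 458 bases at chr7:30923775-30924232. It rose by log2 1.81 (SE 0.35, adjusted p = 0.00041 by edgeR), on counts of only 21 to 47 in HFD and 4 to 13 in CD libraries. Its RNA had 87.9, 52.1, 22.8 and 20.3 CPM in HFD A to D, against 2.55, 0.986, 2.14 and 6.92 CPM in CD A to D (log2 change 3.87, SE 0.63).

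Serpina3m, a serine protease inhibitor gene, had 10.5, 11.4 and 7.14 CPM of H3K9ac in HFD A, B and D, against 4.38, 5.42 and 4.55 CPM in CD A, C and D. The groups did not overlap (log2 change 1.02, SE 0.20, adjusted p = 0.000402 by edgeR), and its RNA rose by log2 0.92 (SE 0.11), also with no overlap. The pseudogene Serpina4-ps1 fell at a region of 237 bases (log2 change -1.28, SE 0.36, adjusted p = 0.0355) and in the RNA (-2.75, SE 0.45). Its H3K9ac call was lost without HFD B, HFD D, CD A or CD D (adjusted p up to 0.205, without CD A). The second short region of the gene, of 630 bases, missed the threshold (-0.84, adjusted p = 0.315).

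Of the enzymes and transporters, those that rose included 3 of the regions that stayed called with any library left out. Cyp17a1, a steroid hydroxylase, had 6.05, 6.34 and 4.06 CPM of H3K9ac in HFD A, B and D, against 2.14, 2.25 and 2.57 CPM in CD A, C and D, in 477 bases (chr19:46672507-46672983; log2 change 1.25, SE 0.24, adjusted p = 0.00031 by edgeR). Its RNA had 29.1, 21.2, 15.9 and 35.4 CPM in HFD A to D, against 3.04, 2.16, 2.49 and 2.37 CPM in CD A to D. Abcb1a, a drug efflux pump, had 21.8, 21.6 and 21.3 CPM of H3K9ac in HFD A, B and D, against 9.56, 11.2 and 10.4 CPM in CD A, C and D (799 bases at chr5:8659940-8660738; log2 change 1.05, SE 0.14, adjusted p = 2.87e-07). The HFD libraries of Abcb1a were nearly equal, and all were well above the CD libraries. Its RNA was low, at 6.38, 9.40, 3.53 and 5.84 CPM in HFD A to D, against 1.52, 2.69, 2.49 and 2.18 CPM in CD A to D (log2 change 1.5, SE 0.29). Acot4, a peroxisomal acyl-CoA thioesterase, had 66.9, 76.6 and 60.0 CPM of H3K9ac in HFD A, B and D, against 39.1, 47.7 and 50 CPM in CD A, C and D (937 bases at chr12:84038228-84039164). Its rise was small but clear of the overlap (log2 change 0.58, SE 0.10, adjusted p = 3.75e-05), and the RNA missed the threshold (0.77, SE 0.24, adjusted p = 0.0799).

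Other enzymes were called with all libraries, but each of these calls was lost with at least 1 library left out. Aldh1b1, a mitochondrial aldehyde dehydrogenase, had a log2 change of 0.79 (SE 0.19, adjusted p = 0.00666 by edgeR, and 0.0878 without HFD B). Ugt1a1, which conjugates bilirubin, had 45.7, 48.0 and 39.3 CPM in HFD A, B and D, against 34.8, 32.2 and 31.3 CPM in CD A, C and D (log2 change 0.44, SE 0.10). Its call was lost without HFD A, HFD B or CD C (adjusted p up to 0.148, without HFD B), and its RNA did not pass (0.06, SE 0.10). Gda, a guanine deaminase, had a log2 change of 0.46 (SE 0.11, adjusted p = 0.00582, lost without HFD B or CD A, up to 0.0779). Hsd11b1, which regenerates active glucocorticoid, and Aoc1, a diamine oxidase, passed although their diets overlapped. Their log2 changes were 0.76 (SE 0.21) and 1.61 (SE 0.45), with adjusted p = 0.524 for Hsd11b1 without HFD A and 0.612 for Aoc1 without HFD B. The Hsd11b1 call was also lost without HFD B, CD A or CD C, and that of Aoc1 without CD A or CD C.

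Enzyme genes that fell were spread over several pathways. Ddc, the aromatic amino acid decarboxylase, had 0.767, 1.74 and 1.54 CPM in HFD A, B and D, against 4.29, 3.17 and 2.08 CPM in CD A, C and D (log2 change -1.26, SE 0.31, adjusted p = 0.00985 by edgeR). Its call was lost without HFD A, CD A or CD C (adjusted p up to 0.207, without CD A), while its RNA fell by 1.5 on the log2 scale (SE 0.17) and stayed called with any library left out. Pmvk, a kinase of cholesterol synthesis, had a log2 change of -0.41 (SE 0.11, adjusted p = 0.0358) and -1.31 in the RNA (SE 0.22). Rdh11 and Dhrs9, dehydrogenases of retinoids, had log2 changes of -0.63 (SE 0.16) and -0.85 (SE 0.24), and -1.12 and -1.42 in the RNA. Aldoc, the brain-type aldolase, had -0.85 (SE 0.21) and -0.79 in the RNA, and Gstm6, a glutathione transferase, -0.86 (SE 0.22) with an RNA that did not pass (-0.28, adjusted p = 0.24). The H3K9ac calls were lost without HFD B, HFD D, CD A or CD C for Pmvk (up to 0.279, without CD C), HFD B or CD C for Rdh11 (up to 0.246) and Aldoc (up to 0.0765). They were lost without every library but HFD D for Dhrs9 (up to 0.24), and without HFD A, HFD B or CD A for Gstm6 (up to 0.119). The RNA call of Dhrs9 was lost without HFD B, CD A, CD B or CD C (up to 0.099).

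Genes of membranes, synapses and the cytoskeleton also changed in both directions. Grin3b, a glutamate receptor subunit, had 15, 14.2 and 16.4 CPM of H3K9ac in HFD A, B and D, against 8.40, 6.92 and 9.60 CPM in CD A, C and D (872 bases at chr10:79970588-79971459; log2 change 0.87, SE 0.16, adjusted p = 0.000271 by edgeR). Its RNA rose by log2 2.05 (SE 0.40) but was only 0.161 FPKM on average. Unc13b, a vesicle priming factor best known from synapses, had 23.7, 21.1 and 23.1 CPM of H3K9ac in HFD A, B and D, against 35.5, 34.8 and 33.7 CPM in CD A, C and D (987 bases at chr4:43058735-43059721; log2 change -0.62, SE 0.11, adjusted p = 0.000181). Its RNA had 5.95, 7.14, 8.26 and 9.91 CPM in HFD A to D, against 25.6, 36.2, 29.4 and 25.6 CPM in CD A to D (log2 change -1.90, SE 0.18). In both assays all HFD libraries of Unc13b were below all CD libraries. Krt23, a keratin, had an H3K9ac log2 change of 0.89 (SE 0.24, adjusted p = 0.0243, and up to 0.253 without HFD A, also lost without HFD B, CD A or CD C). Lad1, an anchoring protein of basement membranes, had -0.71 (SE 0.14, adjusted p = 0.000971, and 0.103 without HFD B). Gjb1, the gap junction protein connexin 32, had -0.70 (SE 0.19) while its RNA did not pass (-0.08, SE 0.11); its call held only without CD D, with adjusted p up to 0.346 without CD A.

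Among genes of immunity and regulation, Gbp3, an interferon-induced guanylate-binding protein, had 5.45, 6.95 and 7.14 CPM in HFD A, B and D, against 4.2, 3.25 and 4.06 CPM in CD A, C and D (log2 change 0.76, SE 0.21, adjusted p = 0.0298 by edgeR). It was lost without HFD B, HFD D or CD C (up to 0.229, without HFD B). Crlf2, a cytokine receptor subunit, had 17.4, 17.6 and 19.5 CPM in HFD A, B and D, against 24.2, 25.8 and 26.5 CPM in CD A, C and D (log2 change -0.49, SE 0.12, adjusted p = 0.0123). It was lost without HFD A, HFD B, CD C or CD D (up to 0.156, without HFD B). Ikzf4, a zinc finger transcription factor, fell at both of its short regions (log2 changes -1.27, SE 0.29, and -0.78, SE 0.19). CD A was the highest library in both, and without it neither passed (adjusted p = 0.259 and 0.247). The 997-base region was also lost without HFD A, HFD B or CD C. Scara5, a ferritin receptor, passed (log2 change -0.66, adjusted p = 0.0338) although CD D, at 9.41 CPM, lay below all HFD libraries (12.3, 15.4 and 15.9 CPM), with 30.8 and 28.1 CPM in CD A and C. In the authors' deposited table its false discovery rate was 0.707, and the call was lost here without HFD A, HFD B, CD A or CD C (up to 0.515). In the authors' deposited table, 52 short regions were under 0.05, of which 44 were among the 46.

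Each of the other calls named here was lost with at least 1 library left out. Among the 10 largest rises were also the pseudogene 9030619P08Rik (log2 change 1.06, and adjusted p = 0.0965 by edgeR without CD C, lost too without HFD A or CD D) and the potassium channel subunit gene Kcnab2 (1.06, up to 0.0672 without CD A, lost too without HFD B or CD C). Among the 10 largest falls were also Gm3219 (-1.27, up to 0.32 without CD A, lost too without HFD B or CD C) and the monooxygenase gene Moxd1 (-0.96, up to 0.47 without CD C, lost too without HFD A or HFD B). LOC102631757 (0.51), Ccdc141 (0.46) and Dopey2 (0.40) rose less. The other falls ran from -0.81 at Slc7a7, a transporter of cationic amino acids, to -0.32 at Tbc1d22b. Between them lay Fabp12, Lrrc14b, Plekhb1, Zfp872, Rnf225, Zfand4 and Cldn1, a tight junction protein. The highest adjusted p of these last 12 with 1 library left out was 0.0721 for Dopey2 (without CD A) to 0.453 for Plekhb1 (without CD C).

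H3K9ac changes at short regions went with RNA changes of the same sign. Of the 46 regions, 39 had a gene in the RNA table, and in all 39 the log2 changes of both assays had the same sign. For comparison the share was 83.9% over the 1127 called regions of any kind with a measured gene, these included, and 56.1% over the 2465 short regions that were not called. The RNA passed as well for 22 of the 39 (56.4%), 10 higher and 12 lower, against 7.27% of all genes tested. At the 307 called longer promoter regions with a measured gene, the sign was shared by 89.6% and the RNA passed at 45.9%, and at called regions of any kind it passed at 39.5%. The difference between short and longer regions was not tested. The other 17 of the 39 included Acot4, Ugt1a1, Hsd11b1, Gjb1 and Gstm6. They also included both regions of Ikzf4, which share 1 RNA value, so the 39 regions are not 39 separate genes. Of the 22, only Hamp2, Cyp17a1, Abcb1a, Serpina3m, Grin3b, Serpina1e and Unc13b kept their H3K9ac call with any 1 library left out. With each of the 8 RNA libraries left out in turn, the RNA call held 2 times for Crlf2 and for Plekhb1. It held 3 times for Zfand4, 4 for Dhrs9 and 5 for Gbp3. If equal letters mark the same livers, the assays share animals, and the counts are then not independent. In size, the RNA change was the larger one at Hamp2, Cyp17a1, Grin3b, Krt23 and Unc13b, and about equal to the H3K9ac change at Serpina1e, Serpina3m and Aldh1b1.

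**Figure D4:**
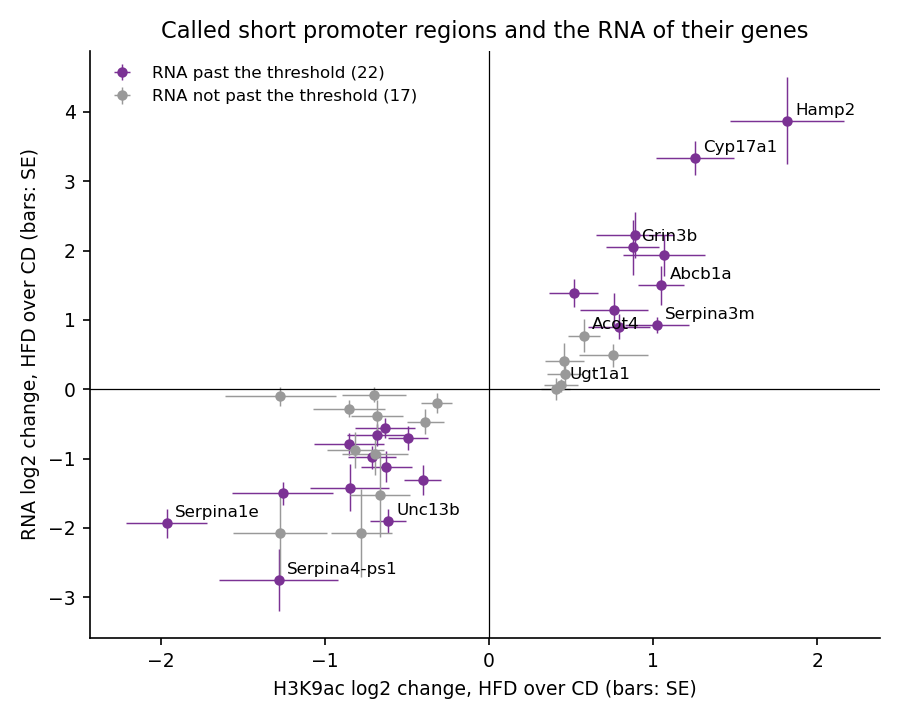
RNA log2 change against H3K9ac log2 change, HFD over CD, for the 39 called short promoter regions with a measured gene; bars are SEs. All points lie in the quadrants of equal sign, and 22 (purple) passed in the RNA as well.

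Most short regions at genes whose RNA changed had no H3K9ac change that passed. Of 2310 measured genes with a short promoter region, 174 passed in the RNA by edgeR (7.53%), against 7.27% of all genes, 94 higher in HFD (3.63% of all genes were) and 80 lower (3.64% of all genes). The share was therefore near that of all genes. Leaving out HFD B left 94 genes, CD B 111, CD A 113 and CD C 116, and DESeq2 called 270. Calls over all genes under these settings were not counted, so whether all genes moved alike is not shown. Of the 193 short regions at the 174 genes, 171 did not pass in H3K9ac. Other regions of these genes were not counted, and 32 of the genes had a longer promoter region as well. With the short region of highest level taken for each gene that had no longer one, the median H3K9ac log2 change was 0.20 (interquartile range 0.06 to 0.56) at the 77 genes whose RNA rose and -0.23 (-0.47 to 0.02) at the 65 whose RNA fell. It was 0.03 (-0.06 to 0.14) at the 1806 whose RNA did not pass. The sign was that of the RNA at 59 of the 77 and 47 of the 65, and 10 and 9 passed. At Ddc and Serpina4-ps1, whose RNA fell, a short region of lower level passed instead and is not in these counts.

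Among the 8 largest RNA rises at genes with only short regions, Hamp2, Cyp17a1 and Krt23 passed in H3K9ac and 5 did not. Usp2, a deubiquitinase with rhythmic expression, had 43.2, 56.0, 9.08 and 12 RNA CPM in HFD A to D, against 2.42, 4.05, 2.34 and 2.37 CPM in CD A to D (log2 change 3.42, SE 0.57, adjusted p = 0.00494 by edgeR). Its short region had 20.6, 18.9 and 16.2 CPM of H3K9ac in HFD A, B and D, against 18.4, 18.5 and 19.3 CPM in CD A, C and D. The H3K9ac of Usp2 overlapped fully (log2 change -0.01, SE 0.13), with an error far smaller than the RNA change. Rdh9, a retinol dehydrogenase family member, had an RNA log2 change of 2.11 (SE 0.12) and an H3K9ac change of 0.42 (SE 0.19) with overlapping diets. For Rad51b, a homologous recombination gene, the values were 2.62 in the RNA and 0.06 in H3K9ac (SE 0.20), for Slc26a4, an anion exchanger, 2.30 and 0.13 (SE 0.25), and for Mmd2 2.28 and -0.04 (SE 0.20). The RNA call of Rad51b was lost without CD B (adjusted p = 0.0543). RNA levels were low, at only 0.311 FPKM for Rad51b and 0.197 FPKM for Slc26a4 on average. In CD A, Slc26a4 had 0.0621 CPM, less than the 0.0909 CPM that a count of 3 corresponds to.

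Of the 8 largest RNA falls at genes with only short regions, H3K9ac passed at Serpina1e and at the shorter region of Serpina4-ps1. Ugt1a9, a glucuronosyltransferase, had 9.85, 9.58, 9.17 and 11.4 RNA CPM in HFD A to D, against 45.9, 70.4, 34.0 and 48.6 CPM in CD A to D (log2 change -2.31, SE 0.20, adjusted p = 0.000133 by edgeR). Its 285-base region had 2.81, 2.35 and 1.65 CPM of H3K9ac in HFD A, B and D, against 1.70, 2.67 and 1.88 CPM in CD A, C and D, and the diets overlapped (log2 change 0.13, SE 0.29). Ces4a, a carboxylesterase, and Derl3, a factor of protein degradation in the endoplasmic reticulum, had RNA log2 changes of -1.98 and -1.99, beside H3K9ac changes of 0.16 (SE 0.37) and 0.24 (SE 0.21). Asns, the asparagine synthetase, Cml5 and Rps6kl1 had RNA changes of -2.26, -2.73 and -2.25, and H3K9ac changes of -0.52 (SE 0.22), -0.41 (SE 0.37) and -0.46 (SE 0.20), none of which passed. Rps6kl1 was the only one of these 3 whose diets did not overlap in H3K9ac, and its RNA was only 0.217 FPKM on average.

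**Figure D5:**
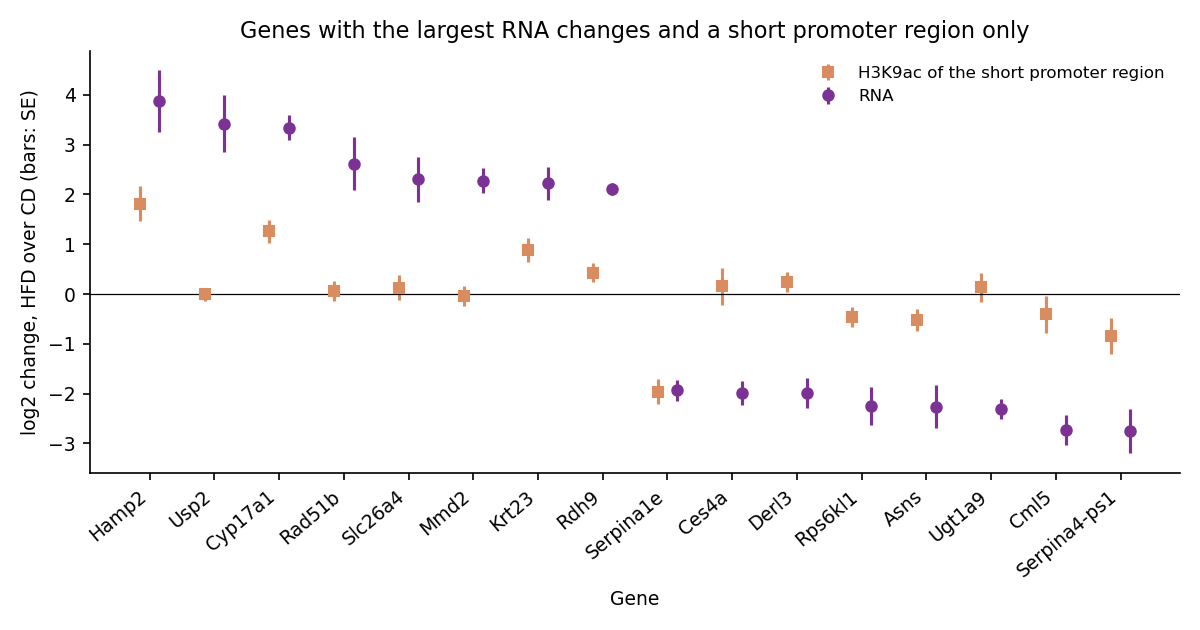
Log2 change of HFD over CD in H3K9ac (orange squares, the short region of highest level) and in RNA (purple circles) for the 8 largest RNA rises and 8 largest falls among genes with only short promoter regions; bars are SEs. H3K9ac of Usp2, Rad51b, Slc26a4, Mmd2, Ces4a, Derl3 and Ugt1a9 lies within 0.25 of 0, and that of Hamp2, Cyp17a1, Krt23 and Serpina1e passed the threshold.

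Pathway lists differed in how many of their genes had a short promoter region, and few regions passed in any of them. Over all short regions 1.04% passed by edgeR, against 2.39% of all regions. An unadjusted p under 0.05 was reached by 314 of the 4423 short regions (7.1%) and by 6310 of all 57499 regions. Of 25 interferon response genes 11 had one, and of their 11 regions 1 rose (Gbp3) and 0 fell by edgeR (4 at an unadjusted p under 0.05, 0 with DESeq2 and 1 with limma-voom), with a median log2 change of 0.33 beside 0.04 over all short regions. Gbp2 and Gbp7, of the same family as Gbp3, had 0.98 (SE 0.33, adjusted p = 0.115 by edgeR) and 0.33 (SE 0.12, adjusted p = 0.205). Rsad2, an interferon-induced antiviral protein, had -0.37 (SE 0.16, adjusted p = 0.332). Of 20 acute phase genes 7 had one, and of their 8 regions 2 rose by edgeR (Serpina3m and Hamp2), with 3 at an unadjusted p under 0.05, 1 called with DESeq2 and 2 with limma-voom. Of 20 hepatocyte secreted proteins 6 had one, and of their 8 regions 0 passed by edgeR, DESeq2 or limma-voom, with 1 at an unadjusted p under 0.05. It was that of Hp, the haemoglobin-binding protein haptoglobin (0.38, SE 0.16, adjusted p = 0.336).

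Fatty acid oxidation genes had a short region in 6 of 25, and 0 of the 6 regions passed by edgeR, DESeq2 or limma-voom, with 3 at an unadjusted p under 0.05. That of the coactivator Ppargc1a had 5.96, 4.69 and 5.16 CPM in HFD A, B and D, against 3.66, 2.83 and 3.66 CPM in CD A, C and D. These did not overlap but missed the threshold (log2 change 0.64, SE 0.22, adjusted p = 0.126 by edgeR), while the RNA rose (0.98, SE 0.19). The RNA of Vnn1 and Bdh1 rose too (0.59 and 0.79), beside H3K9ac log2 changes of 0.49 and 0.34. The RNA of Acot1 and Pex11a fell (-0.92 and -0.53), beside H3K9ac changes of 0.004 and 0.05. Cyp4a10 passed in neither assay. Of 24 cholesterol synthesis genes 3 had one: of their 4 regions that of Pmvk fell by edgeR and limma-voom (DESeq2 called 0 of the 4), and a 233-base region at Hmgcs1, which has a longer promoter region as well, had -1.63 (SE 0.51, adjusted p = 0.0813) on few reads. Of 24 xenobiotic metabolism genes 2 had one, with Ugt1a1 rising among 3 regions. Of 20 male-biased liver genes 2 had one, Serpina1e, which fell, and C8b, a complement component (0.06, SE 0.21), whose RNA fell (-0.87). Of 19 female-biased genes 1 had one, Cyp17a1, which rose. Of 19 clock genes 1 had one, and 0 of its 2 regions passed by edgeR, DESeq2 or limma-voom, with 0 at an unadjusted p under 0.05.

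In the lists of bile acid genes (6 of 20 with a short region), lipogenesis and lipid storage (4 of 28), glucose and insulin (3 of 20), immediate early genes (1 of 14) and endoplasmic reticulum stress (3 of 19), 0 of 20 short regions passed by edgeR, DESeq2 or limma-voom, with 1 at an unadjusted p under 0.05. These 5 lists were put together because none of their regions passed by edgeR, so the pooled 0 is no result of its own. Over all short regions, only 1.04% passed. Abcg8, a sterol exporter, and Akr1d1, a bile acid synthesis enzyme, had RNA that rose (1.5 and 0.81) beside H3K9ac log2 changes of 0.52 (SE 0.35) and 0.56 (SE 0.43). Gys2, the liver glycogen synthase, had 0.72 in the RNA, which passed, and 0.15 in H3K9ac (SE 0.12) at its 981-base region.

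Markers of other cell types had short regions to differing extents. Of 13 sinusoidal endothelium markers 8 had one, of 14 macrophage markers 3, of 13 stellate cell markers 2 and of 9 cholangiocyte markers 2. For lymphocyte markers it was 5 of 16 and for neuron markers 5 of 12. Of the 12334 genes measured in the RNA, 2310 had one. The marker counts include unmeasured genes: only 7 lymphocyte and 4 neuron markers were measured. They are therefore not directly comparable with the share of measured genes. Of the short regions of these lists, and of those of hepatocyte, stellate cell and cholangiocyte markers, 33 in all, 0 passed by edgeR, DESeq2 or limma-voom. At an unadjusted p under 0.05 there were 4, of which 3 were endothelial, against the 7.1% of all short regions given above. Tie1, an endothelial receptor, had 4.17, 4.17 and 3.18 CPM in HFD A, B and D, against 7.41, 5.17 and 4.85 CPM in CD A, C and D (log2 change -0.59, SE 0.22, adjusted p = 0.188 by edgeR). Fcgr2b, an Fc receptor, had 0.59 (SE 0.22, adjusted p = 0.202) and the receptor gene Gpr182 -1.27 (SE 0.55, adjusted p = 0.332), and the median of the 11 endothelial regions was -0.03. In the RNA, the mean log2 level of the endothelial list relative to the CD mean was -0.56 to 0.52 in HFD and -0.16 to 0.32 in CD libraries. That of the macrophage list was -0.68 to 0.81 in HFD and -0.30 to 0.32 in CD. Both overlapped between diets, with a wider spread in HFD, and 0 of 13 measured endothelial and 0 of 13 measured macrophage markers passed, adjusted by any of these tools or unadjusted by edgeR. The hepatocyte, stellate cell, lymphocyte and neuron lists overlapped between diets too. The cholangiocyte list did not: it was -0.98 to -0.27 in HFD and -0.13 to 0.13 in CD libraries, with 1 of 8 measured markers lower by edgeR, 4 at an unadjusted p under 0.05, 2 called with DESeq2 and 1 with limma-voom. Its 2 short regions, of Krt19 (a keratin of bile ducts) and Pkhd1, had H3K9ac log2 changes of 0.59 (SE 0.29) and -0.01 (SE 0.30). The part of cell composition in the changes above was not tested.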

How the data were processed

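The H3K9ac libraries came from 3 livers per diet and the RNA libraries from 4. The authors deposited raw counts per H3K9ac region and per gene, per the file headers. The tables also hold their log2 values (log2 CPM, log2 FPKM and log2 fold change) and p-values with false discovery rates (FDR), per the file headers. Region lengths and distances, which run from the region's centre, are the authors' deposited values. Coordinates are in mm10, the build named per the submitters' processing notes. The sources used here name no peak caller, aligner or counter, nor its use of strand (not given in the sources used here). Of 57571 lines in the H3K9ac table, 57499 were unique regions; 119 lines held a date in place of a gene name. The RNA table listed 12334 genes, beside 4999 blank lines that were not used.

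Diets were compared with edgeR 4.0.16 (R 4.3.3) on all features: TMM, filterByExpr, glmQLFit and glmQLFTest, diet as the only term, two-sided, adjusted by Benjamini-Hochberg at 0.05. A region or gene past it is called. Every adjusted p of this text comes from this test unless another is named. SEs are those of log2 changes, taken as the absolute log2 change over the square root of the test's F statistic. They are therefore approximate. Alternatives were other scalings and filters, DESeq2 1.42.0, limma-voom (limma 3.58.1), each library left out, and other limits of distance and length. A count of 3 corresponds to 0.247 to 0.324 CPM in H3K9ac, a limit of counting error only. The labels do not say that libraries are separate animals beyond their letters, so p-values measure the spread between these libraries.

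Named regions were the called ones with the largest changes and no overlap of diets, the highest per kb, those at the length limit, genes with only short regions by RNA level and change, up to 4 per list by smallest p, and regions called in both assays. Other called regions were named after their values were seen. The members, lists and rules were chosen with earlier results of these data known. Values of some genes are not reported here.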

Additional observations from a re-analysis of the deposited data

Results flagged for a closer look

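In 2 of 76 groups of 4 RNA libraries examined, 1 library stood apart from the other 3 of its diet by Dixon's test; chance flags about 1 in 20 groups. The RNA of Serpina3k, which has only a short promoter region, was 15800 CPM in CD A, against 11600 CPM in the nearest CD library. The RNA of Usp2 was 4.05 CPM in CD B, against 2.42 CPM in the nearest CD library. All HFD libraries of Usp2 lay above CD B, and all HFD libraries of Serpina3k below all CD libraries.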

How the results depend on the processing

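The 46 called short regions became 26 with only regions at or above the median level, which tests fewer regions, 23 with DESeq2, 7 with lengths below 500 bases, and 15 to 53 with 1 library left out (lowest without HFD B, highest without HFD D). They were 46 with RLE size factors, 35 with library totals, 46 with no filter, 37 with limma-voom and 43 with the start site within 500 bases. Over all regions, 1372 were called in the main fit and 813 with DESeq2. With RLE size factors 1371 of all regions were called, with library totals 1261 and with limma-voom 1229. The 174 genes called in the RNA became 96 at or above the median level, 270 with DESeq2, and 94 to 209 with 1 library left out (lowest without HFD B, highest without HFD A). With the letter as a replicate block, 34 short regions were called, 22 of them among the 46, and 158 genes. Over all regions that fit called 1277. In H3K9ac, letter B had only an HFD library and letter C only a CD library. The diet effect of the blocked H3K9ac fit therefore came from A and D alone. Same-letter deviations correlated at 0.097 and 0.093 in H3K9ac and at -0.257 to 0.339 in RNA. In H3K9ac, HFD A and HFD D each correlated best with the CD library of their own letter, and in RNA only HFD B did. Letters were not taken as pairs. The RNA log2 change of Fabp1 was -0.101 to 0.241 and that of Ttr -0.0788 to 0.282 with 1 library left out, both below 0 without HFD A; neither was called, and the cause was not tested. The log2 ratio of the read share was 0.0323, with 0.0262 to 0.0402 when 1 library was left out. Of 559 values of single named regions and genes under alternatives other than a library left out, 474 kept their direction and side of the threshold. These included 46 H3K9ac and 38 RNA values with no filter, which repeat the main fit because the filter removed nothing. Most of the losses were in H3K9ac. There, 24 calls were lost with the replicate block, 18 with DESeq2 and 15 at or above the median level. A further 11 were lost with limma-voom, 11 with library totals and 2 with RLE size factors. In the RNA, 4 calls were lost, all with the replicate block. Values that a setting did not test or adjust were not counted. With 1 library left out, 37 of the 46 H3K9ac calls were lost at least once. The mean count was under 20 in 1090 of the 4423 short regions, of which 851 were among the 1044 of 200 to 399 bases.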
